A study of Mus musculus with 4 samples.

Results

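The RAS brake genes examined here were Nf1, Rasa1, Rasa2, Rasa3, Rasal2, Spred1, Spred2 and Spred3, which are 8 of the 32286 genes listed in each count matrix. They were chosen by symbol and not by their values. Their levels were measured by droplet-based single-cell RNA-sequencing of tdTomato-positive (tdTom+) cells sorted from thoracic and lumbar vertebrae of adult mice. In this assay each captured RNA is tagged near its 3′ end with a cell barcode and a unique molecular identifier (UMI), so that a UMI count is a count of captured RNA molecules, and levels are given as UMIs per 1000000 UMIs of the same cells (CPM). Each molecule is counted once near its end, so the levels were not divided by transcript length.

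All 4 libraries came from mice homozygous for the tdTomato reporter at the R26 locus, in which Cre recombinase was expressed from the Prss56 locus and marked cells that had once expressed Prss56 together with their descendants. Control mice (Prss56Cre/+;R26tdTom/tdTom;Nf1+/+) had 1 copy of the Cre allele with both Nf1 copies wild type, whereas mutants (Prss56Cre/Cre;R26tdTom/tdTom;Nf1fl/fl) had 2 copies of the Cre allele with both Nf1 copies floxed. There was 1 library for each genotype at 3 months and 1 at 12–16 months of age, so genotype, the number of Cre alleles and the library cannot be told apart. Any comparison of genotypes or ages therefore has no replicate check, and the intervals given for it are 95% intervals that cover counting error only. Comparisons between cell classes rest on the libraries as replicates, which differ in genotype and age, with 4 libraries for cartilage and bone/stroma and 3 for mural and blood cells.

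RAS is a small GTPase that signals while it holds GTP, and it passes the signal through RAF and MEK kinases to ERK. Neurofibromin, the product of Nf1, and the products of Rasa1, Rasa2, Rasa3 and Rasal2 are GTPase-activating proteins (GAPs) that speed the return of RAS or related GTPases to the inactive state. SPRED proteins bind neurofibromin and bring it to the cell membrane. Loss of NF1 causes neurofibromatosis type 1, in which the skeleton is often affected, and loss of SPRED1 causes the related Legius syndrome.

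In the GRCm38 annotation, Nf1 spans 241920 bases on the plus strand of chromosome 11 (79339693 to 79581612), and Rasal2, the longest of the 8, spans 277414 bases on the minus strand of chromosome 1 (157135182 to 157412595). Rasa3 is on the minus strand of chromosome 8 (13566948 to 13677603), and Spred1 and Spred2 are on the plus strands of chromosomes 2 (117121374 to 117182279) and 11 (19924375 to 20024026). Rasa1 is on chromosome 13 (85214780 to 85289130), Rasa2 on chromosome 9 (96539300 to 96631617) and Spred3 on chromosome 7 (29158829 to 29170411), all 3 on the minus strand. Genes on the opposite strand overlap Nf1, Rasa1 and Spred3. Those within Nf1 were rarely counted, with 44 UMIs for Evi2 and 45 for Evi2a over all passing cells, of which 32 and 31 were in blood-gated cells.

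Of 2172 barcodes, 1757 cells passed the filters on UMIs, genes and mitochondrial share. They numbered 717 and 484 in the control and mutant libraries at 3 months, and 135 and 421 at 12–16 months, with 2154537 to 9429264 UMIs per library and no barcode shared between libraries. Cells were sorted into 4 classes by fixed limits on a few genes. The cartilage gate (Sox9 and Acan) held 1286 cells, the bone/stroma gate (Runx2 with little Acan) 194, the mural gate (Rgs5 and Myh11, markers of the contractile cells around vessels) 58 and the blood gate (Ptprc, which encodes CD45) 87. Although the sort discarded cells with CD45, CD11b or CD31 on their surface, Ptprc-positive cells were present in every library. In total, 44 cells met more than 1 gate and 176 met none. The paper regarded immune, smooth muscle and endothelial cells as contamination and left them out of its later analyses. Blood- and mural-gated cells are therefore not taken here as descendants of Prss56-expressing cells. Counts of tdTomato were low, with 77 and 34 UMIs in control and mutant cells at 3 months and 16 and 37 at 12–16 months. The tdTom+ label thus rests on the sort.

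The bone/stroma gate did not hold the same cells in every library. In the 3-month mutant library, 23 of its 39 cells also met the blood gate, against 1 of 45 in the control library of that age, and 2 of 27 control and 7 of 83 mutant cells at 12–16 months. The summed blood markers of the gate reached 6152 CPM in the 3-month mutant library and 12.7 to 2661 CPM in the others, and the summed bone markers were 10843 CPM there against 53253 to 140217 CPM. The gate tests are therefore also given for cells of exactly 1 gate, and the genotype ratios of this gate also without the Ptprc-positive cells. The blood gate of the 3-month control library held 13 cells with a median of 1242 UMIs, and the mural and blood gates of the 12–16-month control library held only 3 and 2 cells and were left out of the tests.

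The level of the targeted gene, Nf1, was 131 CPM (1239 UMIs) in control and 150 CPM (1091 UMIs) in mutant cells at 3 months, and 147 CPM (317 UMIs) and 125 CPM (552 UMIs) at 12–16 months. The direction at 3 months depended on the scaling, since the mutant/control ratio was 1.14 by total UMIs and 1.00 with TMM factors, and with every cell thinned to 2000 UMIs its log2 was -0.13. UMIs are counted near the 3′ end, and a transcript that has lost floxed exons elsewhere would still be counted, so these levels do not check recombination of the floxed allele.

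Nf1 was called lower in blood-gated than in cartilage-gated cells, and no difference was called among the cartilage, bone/stroma and mural classes. In cartilage-gated cells it was at 134 CPM (control) and 160 CPM (mutant) at 3 months, and at 145 CPM (control) and 124 CPM (mutant) at 12–16 months. In this order of libraries, which is kept for all levels given by library, the bone/stroma gate gave 138, 91.7, 162 and 148 CPM. The second of these was 0.574 times the cartilage level of its library (0.450 to 0.722), and 1.32 times (0.940 to 1.82) among cells of exactly 1 gate. The mural gate gave 124, 141, 199 and 131 CPM, of which the third rests on 11 UMIs of 3 cells. The blood gate gave 89.0, 68.3, 156 and 43.1 CPM, of which the first rests on 2 UMIs and the third on 14 UMIs of 2 cells. In the 3 libraries tested, the blood level was below the cartilage level of the same library.

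**Figure D1:**
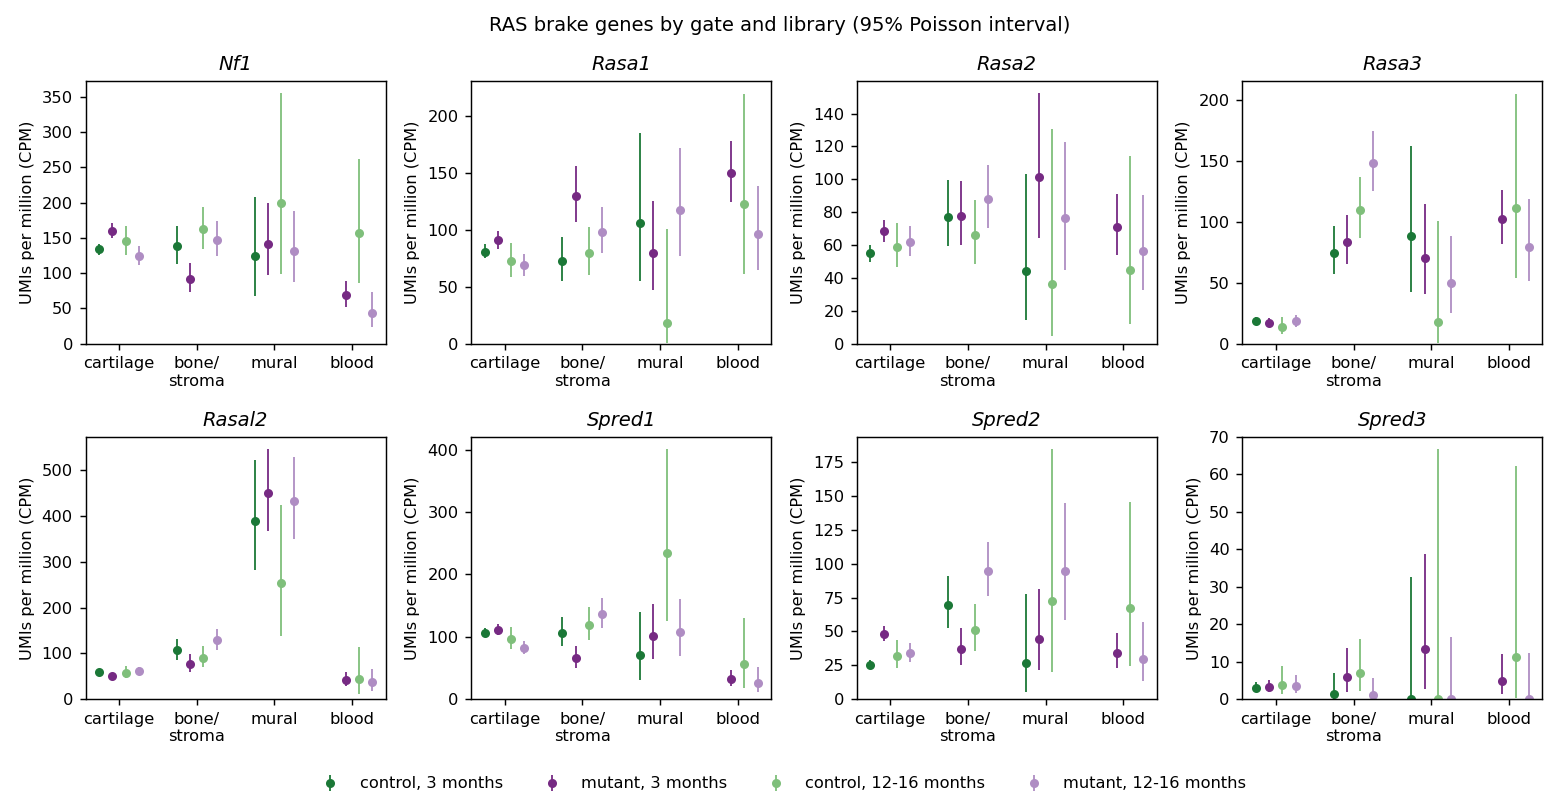
Levels of the 8 genes in CPM (y axis, linear, from 0) in each gate (x axis) and library (colors), with exact 95% Poisson intervals, for sums of at least 50000 UMIs. Rasal2 stands at 253 to 450 CPM in the mural gate and at 58.3 CPM or below in 3 of the cartilage sums and 61.1 CPM in the fourth, whereas Rasa3 is at 13.8 to 18.3 CPM in cartilage and higher in the other gates, except for 1 mural sum at 18.1 CPM (1 UMI).

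Gate differences were tested with edgeR's quasi-likelihood test on UMIs summed per library and gate, with the library as a term and Benjamini-Hochberg adjustment over 11161 genes. Fold changes are on the scale of TMM normalization, on which the median log2 fold change over all tested genes against cartilage was 0.05 in bone/stroma, -0.29 in mural and -0.14 in blood. With total UMIs in place of TMM these medians were 0.20, 0.11 and 0.15. Spred3 was too low to be tested, which left 7 of the 8 genes. Restricting the fit to cells of exactly 1 gate also took out the mural sum of the 3-month control library, which fell under 10 cells, so that the mural values of that fit rest on the 2 mutant libraries.

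Nf1 was 0.353-fold in blood relative to cartilage (log2 -1.50, SE 0.35, adjusted p = 0.00501) and 0.403-fold relative to bone/stroma (adjusted p = 0.0337). This difference from cartilage was also called among cells of exactly 1 gate (log2 -1.15, adjusted p = 0.0126), but not when the 12–16-month mutant library was left out (log2 -1.41, adjusted p = 0.0921). Nor was it called with every cell thinned to 2000 UMIs (log2 -1.32, adjusted p = 0.0677). Thinning dropped shallower cells and left 4 in the 3-month control blood sum, under the limit of 10 cells. All thinned blood values therefore rest on both mutant libraries and no control library. Against cartilage, neither bone/stroma nor mural cells passed the threshold for Nf1, with log2 fold changes of -0.19 (SE 0.27) and -0.44 (SE 0.32). In bone/stroma the estimate changed sign to 0.10 (SE 0.24) among cells of exactly 1 gate.

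Rasa3 was called higher in each of the other 3 classes than in cartilage. It encodes a GAP that acts on RAS and on the related GTPase RAP1 and is best known from platelets and blood vessels. In cartilage-gated cells it was counted at 18.3, 16.9, 13.8 and 18.2 CPM in the 4 libraries. In bone/stroma-gated cells it was at 74.7, 83.5, 110 and 149 CPM, so that the lowest bone/stroma level was above the highest cartilage level. The fitted difference was 5.46-fold (log2 2.45, SE 0.32, adjusted p = 5.8e-05), and it was 6.09-fold among cells of exactly 1 gate (adjusted p = 1.43e-06). Within each library the bone/stroma level was 4.09 to 8.18 times the cartilage level.

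In blood-gated cells, Rasa3 was at 44.5 CPM (1 UMI), 102, 112 and 79.6 CPM in the same order of libraries, and it was 4.03-fold higher than in cartilage (log2 2.01, SE 0.38, adjusted p = 0.00134). Mural-gated cells were at 88.3, 70.7 and 49.6 CPM in the 3 libraries tested and at 18.1 CPM (1 UMI) in the 3 cells of the 12–16-month control library, which did not enter the test. The tested mural sums were 2.94-fold higher than cartilage (log2 1.56, SE 0.40, adjusted p = 0.0124). The mural call was lost in the fit to cells of exactly 1 gate, which has no mural sum of either control library (log2 1.26, adjusted p = 0.0954), and without the 3-month control library (log2 1.53, adjusted p = 0.0605). Bone/stroma, blood and mural cells were not separated from each other in Rasa3 by the tests between them, with adjusted p of 0.152 for mural against bone/stroma, 0.548 for blood against bone/stroma and 0.489 for blood against mural.

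Rasal2, which encodes a RAS GAP of the SynGAP family, was highest in mural cells. It was at 389, 450 and 433 CPM in the mural gate of the 3-month control, 3-month mutant and 12–16-month mutant libraries, and at 253 CPM (14 UMIs) in the 3 mural cells of the 12–16-month control library. Cartilage gave 58.3, 49.96, 58.1 and 61.1 CPM and bone/stroma 106, 77.7, 90.5 and 129 CPM, so that no library overlapped with the mural levels. Relative to cartilage, mural cells were 5.60-fold higher (log2 2.49, SE 0.28, adjusted p = 2.79e-05), and relative to bone/stroma 3.48-fold higher (adjusted p = 0.00095). Blood-gated cells were at 44.5 CPM (1 UMI), 42.4, 44.7 (4 UMIs of 2 cells) and 36.5 CPM in the same order of libraries. The third of these did not enter the test. In the libraries tested, blood was 0.103-fold relative to mural cells (log2 -3.27, adjusted p = 0.000172).

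The higher Rasal2 level in bone/stroma than in cartilage (log2 0.69, SE 0.25) missed the threshold with all gated cells (adjusted p = 0.0526). Among cells of exactly 1 gate it was 2.03-fold (log2 1.02, SE 0.27, adjusted p = 0.00514). The ratio of bone/stroma to cartilage was above 1 in all 4 libraries, from 1.56 to 2.11.

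Among the SPRED genes, Spred1 was, like Nf1, lower in blood-gated than in cartilage-gated cells. Cartilage-gated cells had 106, 111, 97.1 and 82.1 CPM and bone/stroma-gated cells 106, 66.1, 119 and 136 CPM in the same order of libraries. In the blood gate, no Spred1 UMI was found among 22477 in the 3-month control library, for which the floor of 3 counts is 133 CPM and the exact interval reaches 164 CPM, and the other libraries gave 31.8, 55.8 and 26.5 CPM. Blood was 0.237-fold relative to cartilage (log2 -2.08, SE 0.45, adjusted p = 0.00311), 0.243-fold relative to bone/stroma (adjusted p = 0.0115) and 0.324-fold relative to mural cells (adjusted p = 0.0288).

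Spred2 was at 25.5 to 48.2 CPM in cartilage and 37.1 to 94.9 CPM in bone/stroma, and the ranges overlapped. The difference between these gates was not called with all gated cells, but it was 1.88-fold among cells of exactly 1 gate (log2 0.91, SE 0.28, adjusted p = 0.0157). Spred3 was counted 27, 27, 11 and 12 times in the whole libraries, or at 2.73 to 5.11 CPM, and no difference between gates could be assessed at this depth. Rasa1, a GAP that also binds activated growth factor receptors, and Rasa2 passed the threshold in none of the 6 contrasts between gates with all gated cells. Among cells of exactly 1 gate Rasa2 was lower in blood than in bone/stroma (log2 -1.24, adjusted p = 0.0394). Rasa1 was at 68.8 to 91.0 CPM in cartilage. In blood it was at 267 CPM (6 UMIs), 150 CPM, 123 CPM (11 UMIs of 2 cells) and 96.2 CPM in the same order of libraries. The fitted difference of Rasa1 between blood and cartilage was 0.41 on the log2 scale (SE 0.29).

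Counted over the 7 genes tested, 1 was higher in bone/stroma than in cartilage (Rasa3), against 15.5% of all genes, and none was lower, against 12.9%. Among cells of exactly 1 gate this count was 3 (Rasa3, Rasal2 and Spred2) and none was lower, against 14.8% and 15.5% of all genes. It was also 3 without the 3-month mutant library, where 3334 of 10971 genes were called in either direction. In mural cells 2 genes were higher (Rasa3 and Rasal2), against 9.33%, and none was lower, against 12.6%, and among cells of exactly 1 gate only Rasal2 was higher, against 9.08%, with 11.9% of all genes lower. In blood 1 gene was higher (Rasa3), against 13.8%, and 2 were lower (Nf1 and Spred1), against 19.5%, and the same 3 were called among cells of exactly 1 gate, against 13.3% and 21.5%. In blood against bone/stroma, 3 were lower (Nf1, Rasal2 at log2 -1.47, and Spred1) and none higher, against 9.3% and 1.02%. Among cells of exactly 1 gate 5 were lower, with Rasa2 and Spred2 (log2 -1.48) added, and none higher, against 17.6% and 10.8%. In blood against mural cells 2 were lower (Rasal2 and Spred1) and none higher, against 12.6% and 10.7%. Only Rasal2 was called between mural and bone/stroma cells, where 6.26% of all genes were higher and 8.37% lower. The 3 calls of blood against bone/stroma were lost without the 3-month control library (adjusted p of 0.197 for Nf1, 0.0961 for Rasal2 and 0.0825 for Spred1) and without the 12–16-month mutant library (0.508, 0.318 and 0.196), and that of Nf1 also without the 12–16-month control library (0.0688). The Nf1 call was further lost with total UMIs (0.0657), with stricter Acan limits (0.0599) and when thinned (0.0967), and that of Rasal2 when thinned (0.0967). The call of Spred1 in blood against mural cells was lost without any 1 of the 3-month control (adjusted p = 0.0536), 3-month mutant (0.0548) and 12–16-month mutant (0.189) libraries. It was further lost with no limit on mitochondrial share (adjusted p = 0.0533) and when thinned (0.342). These counts were not tested against the background shares, and with 7 genes nothing is read from them about the group as a whole.

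**Figure D2:**
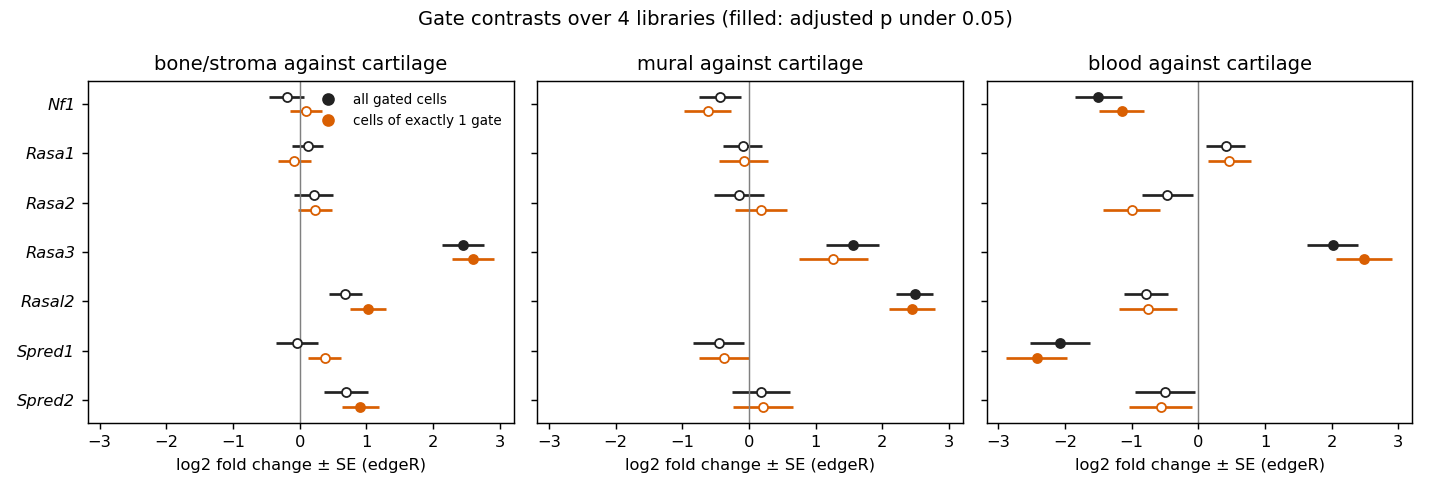
Log2 fold change (x axis, with SE) of the 7 tested genes in bone/stroma, mural and blood cells against cartilage, from edgeR with all gated cells (black) and with cells of exactly 1 gate (orange). Filled points have an adjusted p under 0.05. Rasa3 lies to the right of 0 in all 3 panels, Rasal2 at 2.49 in the mural panel, and Nf1 and Spred1 at -1.50 and -2.08 in the blood panel.

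The make-up of the brake gene UMIs differed between classes accordingly. Nf1 made up 27.4% to 30.2% of the UMIs of the 8 genes in the 4 cartilage sums, and Spred1 18.1% to 22.1%. In the mural sums of the 3 tested libraries, Rasal2 made up 42.9% to 45.8% and Nf1 12.9% to 14.6%. In the blood sums of both mutant libraries, Rasa1 made up 29.7% and 26.1% and Rasa3 20.3% and 21.6%. The 2 blood cells of the 12–16-month control library differed, with Nf1 the largest share at 25.5%, Rasa1 at 20% and Rasa3 at 18.2% of 55 UMIs. The 8 genes summed to 454 to 549 CPM in cartilage and to 848 to 1009 CPM in the tested mural sums.

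**Figure D3:**
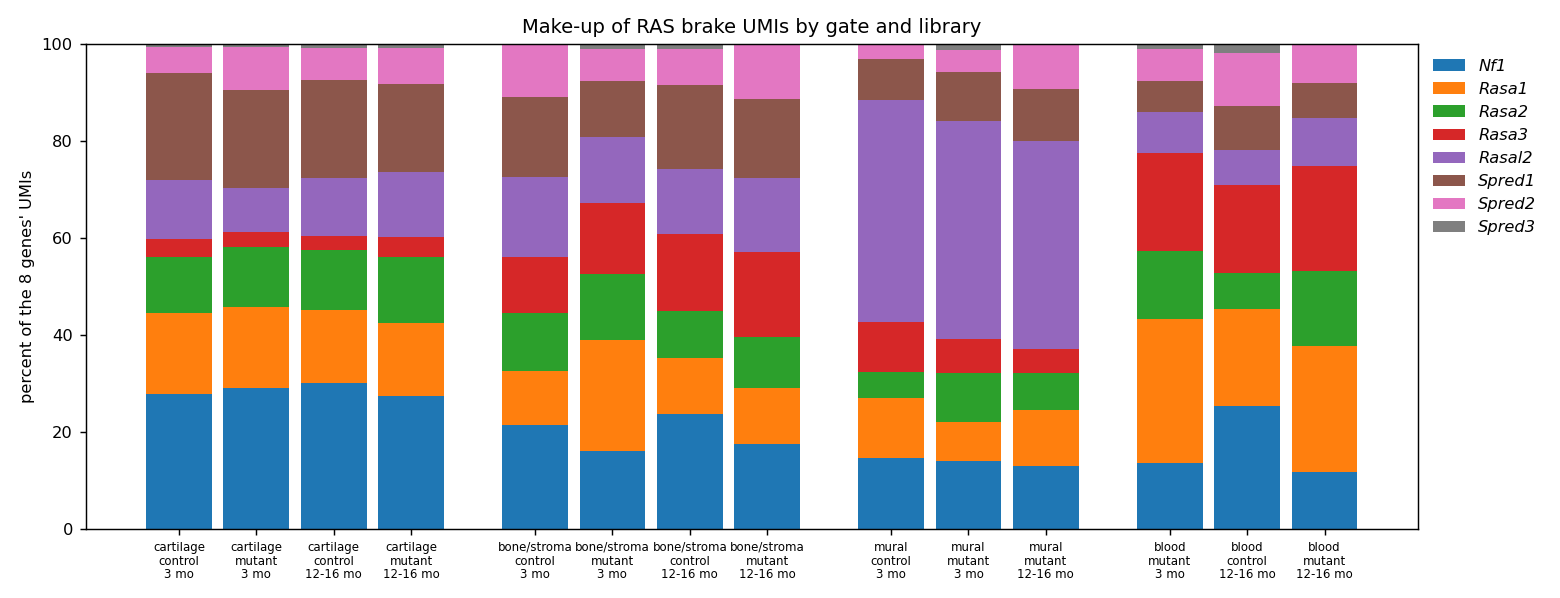
Share of each gene in the UMIs of the 8 genes (y axis, percent) for each gate and library with at least 50 such UMIs. Nf1 is the largest share in all 4 cartilage bars, and Rasal2 is the largest in the mural bars, at 42.9% to 45.8%.

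Subsets of the gates were examined after their values were seen and are given as pooled levels over the 4 libraries, with no test. Bone/stroma-gated cells without a Ptprc UMI (161 cells) had 158 CPM of Nf1, 132 CPM of Spred1 and 125 CPM of Rasal2. Those with a Ptprc UMI (33 cells) had 62.8, 33.2 and 33.2 CPM of the same genes and 138 CPM of Rasa1, against 82.2 CPM without Ptprc. For Rasa3 both subsets were above cartilage, at 116 and 75.9 CPM. Within bone/stroma cells without a Ptprc UMI, those with at least 3 UMIs of Cxcl12, a chemokine made by marrow stromal cells, had 191 CPM of Nf1 and 177 CPM of Spred1. Those without Ptprc and with at least 3 UMIs of the bone markers Ibsp or Bglap had 159 and 134 CPM. Cartilage cells with and without Col10a1, the collagen of hypertrophic chondrocytes, had 134 and 143 CPM of Nf1, with overlapping intervals (122 to 147 and 137 to 149).

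The mutant and control libraries of each age were compared next. At 3 months and by total UMIs, 5 of the 8 genes had a mutant/control ratio above 1 with an interval that leaves out 1, against 39.6% of all genes, and none below, against 22.2%. Of these, only Spred2 reached 1.5-fold, at 47.1 CPM in mutant and 29.5 CPM in control cells (ratio 1.60, interval 1.36 to 1.88), where 24.9% of all genes were at least 1.5-fold higher and 10.8% lower. The other 4 were Nf1 (1.14, 1.05 to 1.24), Rasa1 (1.21), Rasa2 (1.22) and Rasa3 (1.28, 1.06 to 1.55). With TMM factors the ratios were 1.40 for Spred2, 1.00 for Nf1, 1.06 for Rasa1, 1.07 for Rasa2 and 1.13 for Rasa3. Spred1 was at 0.853, Rasal2 at 0.901 and Spred3 at 1.14 with these factors. Intervals were not computed on the TMM scale, so the counts above 1 and below 1 hold for total UMIs only. The median log2 ratio was 0.28 over the 8 genes and 0.16 over all 12552 genes compared.

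At 12–16 months, none of 7 genes reached 1.5-fold in all cells, where 13% of all genes were higher and 5.33% lower. The interval left out 1 for Rasal2 (1.36, 1.13 to 1.64) and Spred2 (1.31, 1.02 to 1.71) in the upward and for Nf1 (0.853, 0.742 to 0.982) in the downward direction, against 21.4% and 9.9% of all genes. Mural cells, in which Rasal2 was highest, made up 6.18% of the passing mutant cells and 2.22% of the control cells at this age. The Rasal2 ratio was 1.05 (0.799 to 1.40) in cartilage cells and 1.43 (1.05 to 1.95) in bone/stroma cells. Of these bone/stroma cells, 13 of 83 mutant and 3 of 27 control cells also met another gate. In bone/stroma cells of exactly 1 gate, Rasal2 was at 111 CPM (mutant) and 93.9955 CPM (control). With all gated cells these levels were 129 and 90.5 CPM. The part of the mural cells in the Rasal2 ratio over all cells was not tested.

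In cartilage-gated cells at 3 months, Spred2 was at 48.2 CPM in mutant (282 UMIs) and 25.5 CPM in control cells (211 UMIs), a ratio of 1.89 (1.57 to 2.27). It was the only member to reach 1.5-fold there, where 21.2% of all genes were that much higher and 14.6% lower. Nf1 (1.20, 1.09 to 1.31), Rasa1 (1.13, 1.00 to 1.26) and Rasa2 (1.24, 1.09 to 1.43) were also above 1 by their intervals, and Rasal2 was below (0.856, 0.738 to 0.992), against backgrounds of 33.6% and 26.8%. At 12–16 months no interval of the 7 genes in cartilage cells left out 1, where 11.5% of all genes were higher and 13% lower in this sense, and none reached 1.5-fold, against 8.27% and 8.21%. Spred2 was at 34.2 and 32.1 CPM (ratio 1.07, 0.736 to 1.57) at that age. The Spred2 ratio at 3 months was 3.76 (2.37 to 6.08) among cartilage cells with a Col10a1 UMI and 1.65 (1.35 to 2.02) among those without. At 12–16 months, the cells with a Col10a1 UMI had 26 Spred2 UMIs in mutant and 1 in control cells. That ratio was 6.49 (1.07 to 266), with the control count under the floor of 3 counts. The split by Col10a1 was chosen after its values were seen.

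**Figure D4:**
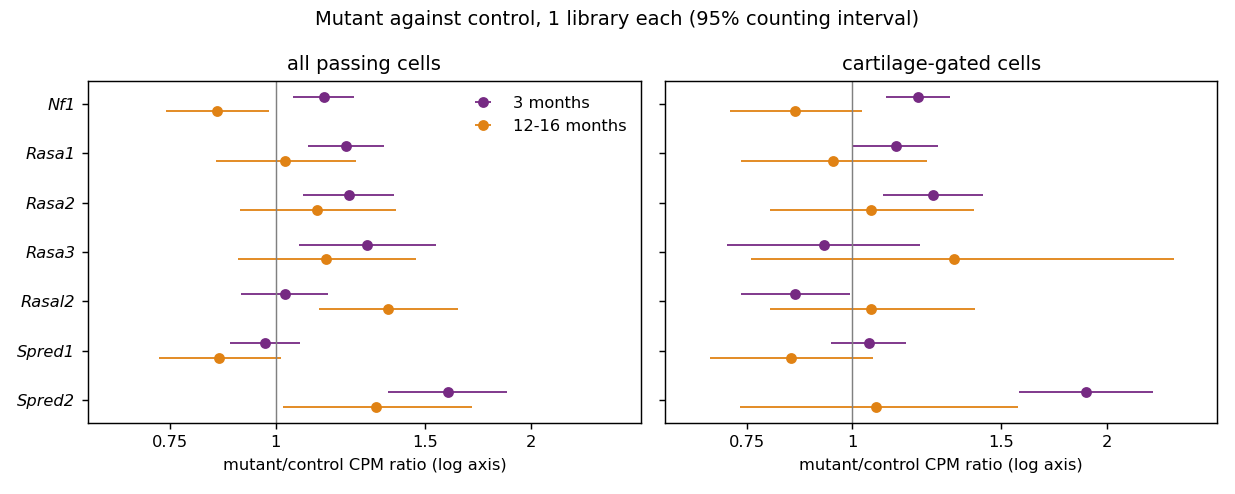
Mutant/control ratio of CPM (x axis, log scale) with exact 95% counting intervals for 7 genes at 3 months (purple) and 12–16 months (orange), in all passing cells and in cartilage-gated cells, with 1 library per genotype and age. Spred2 at 3 months lies at 1.60 in all cells and 1.89 in cartilage cells, and the other ratios lie between 0.846 and 1.36.

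The cartilage gate differed in make-up between the 3-month libraries, since 193 of 377 mutant cells and 94 of 562 control cells had a Runx2 UMI. The Spred2 ratio at 3 months was 1.78 (1.30 to 2.48) among cartilage cells with Runx2 and 1.89 (1.45 to 2.44) among those without. For Nf1 the ratio was 1.02 (0.886 to 1.17) with Runx2 and 1.20 (1.05 to 1.37) without. Rasal2 went in opposite directions, at 0.637 (0.490 to 0.830) with Runx2 and 1.27 (1.05 to 1.54) without. Rasa3 was at 0.513 (0.351 to 0.748) and 1.28 (0.857 to 1.88). At 12–16 months the Nf1 ratio was 1.06 (0.809 to 1.40) with Runx2 and 0.711 (0.557 to 0.912) without. This split was added after the data were seen, and cells with a Runx2 UMI were also deeper, with medians of 17649 and 17832 UMIs against 11984 and 10296 in the control and mutant libraries at 3 months.

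In the bone/stroma gate, the genotype ratios at 3 months depended on the Ptprc-positive cells. With all gated cells, Nf1 was at 91.7 CPM in mutant and 138 CPM in control cells (ratio 0.664, 0.490 to 0.895). Without the cells that had a Ptprc UMI it was at 212 CPM (40 UMIs) and 139 CPM (109 UMIs), a ratio of 1.53 (1.04 to 2.21). Spred1 turned likewise from 0.621 (0.436 to 0.880) to 1.79 (1.17 to 2.67), and Rasal2 from 0.730 (0.522 to 1.02) to 2.28 (1.56 to 3.31). With all gated cells, 1 of the 7 genes was at least 1.5-fold higher (Rasa1), against 35.7% of all genes, and 3 were lower (Nf1, Spred1 and Spred2), against 19.6%. The same genes had intervals that left out 1, against 36.2% and 20.5%. Without the Ptprc-positive cells, 3 of the 7 genes were at least 1.5-fold higher (Nf1, Rasal2 and Spred1), against 28% of all genes, and none was lower, against 20.1%, while Rasa1 was at 1.04 (0.535 to 1.90) and Spred2 at 0.849 (0.400 to 1.64) in place of 1.80 and 0.533. At 12–16 months, Spred2 was at 94.9 CPM in mutant and 50.7 CPM in control bone/stroma cells (ratio 1.87, 1.26 to 2.82, and 2.06, 1.36 to 3.21 without Ptprc), and it was the only one of 7 at least 1.5-fold apart, where 28.4% of all genes were higher and 5.8% lower. By their intervals Rasa3 (1.35) and Rasal2 (1.43) were also higher there and none was lower, against 31% and 7.05%. The Rasal2 ratio includes cells that also met another gate, without which the levels were 111 CPM (mutant) and 93.9955 CPM (control).

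Between the ages, no member was 1.5-fold apart in cartilage cells of either genotype. In control cells, where 14.4% of all genes were that much higher and 9.68% lower at 12–16 months, every interval held 1, against 17.3% of all genes higher and 12.2% lower by their intervals. In mutant cells, where the same shares were 10.7% and 13.1%, Nf1 (0.778, 0.687 to 0.880), Rasa1 (0.756), Spred1 (0.738) and Spred2 (0.710, 0.558 to 0.896) were lower by their intervals and Rasal2 (1.22, 1.01 to 1.48) was higher, against 23.3% and 19.4% of all genes. In all passing cells, Rasa3 was the only member at least 1.5-fold apart, against 16.6% of all genes higher and 10.2% lower in control cells and 12.4% and 9.84% in mutant cells. It was higher at 12–16 than at 3 months in control (46.4 against 24.6 CPM, ratio 1.89, 1.48 to 2.39) and mutant cells (53.2 against 31.6 CPM, ratio 1.69, 1.40 to 2.03). By their intervals 2 members were higher and none lower in control cells, against 22.9% and 16.6% of all genes, and 2 were higher and 3 lower in mutant cells, against 22.7% and 20.2%. In cartilage cells alone the Rasa3 ratios were 0.753 (0.434 to 1.23) and 1.07 (0.751 to 1.52), while bone/stroma-gated cells made up 6.28% and 20% of the passing control cells and 8.06% and 19.7% of the passing mutant cells at 3 and 12–16 months. Within bone/stroma cells without Ptprc the Rasa3 age ratios were 1.46 (1.02 to 2.10) in control and 1.42 (0.897 to 2.37) in mutant cells. The part of the cell shares in the Rasa3 ratios over all cells was not tested.

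The rest of the pathway was described from 5 lists. Among exchange factors and adaptors, which load RAS with GTP or recruit the proteins that do, 7 of 10 genes were at least 1.5-fold higher in mutant cells at 3 months and none was lower (median log2 ratio 0.74, against 0.16 over all genes), and in cartilage cells 5 of 9 were higher. Over all genes, 24.9% were that much higher and 10.8% lower in all cells at 3 months, and 21.2% and 14.6% in cartilage cells. Gab1, a docking protein for the phosphatase SHP2, was at 406 CPM in mutant and 62.9 CPM in control cartilage cells (ratio 6.45, 5.87 to 7.11), and Rasgrf2, an exchange factor, at 29.8 and 2.54 CPM (ratio 11.7, 7.43 to 19.4). At 12–16 months, 3 of 10 genes of this list were higher in all cells, against 13% of all genes, and 1 of 8 in cartilage cells, against 8.27%, where Gab1 was at 169 and 71.9 CPM (ratio 2.36, 1.89 to 2.97).

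Of the ERK feedback and target genes, none was 1.5-fold higher and 5 of 11 were lower in mutant cells at 3 months (median log2 ratio -0.41), against 24.9% and 10.8% of all genes. In cartilage cells none was higher and 4 of 9 were lower, against 21.2% and 14.6%. Fosl1, an AP-1 transcription factor, was there at 1.71 CPM in mutant and 9.32 CPM in control cells (ratio 0.184, 0.0847 to 0.356). The summed level of 5 dissociation stress genes moved with these libraries, at 11092 CPM in control and 5638 CPM in mutant cells, and its part in this result was not tested. At 12–16 months, 1 of 9 feedback genes was higher in all cells and none lower, against 13% and 5.33% of all genes. In cartilage cells none of 5 was higher and 1 was lower, against 8.27% and 8.21%, with a median log2 ratio of -0.48 as at 3 months. At this age the stress genes were at 5454 and 4504 CPM. Of 6 RAS genes, 1 was higher and 2 were lower at 3 months, and 1 was higher at 12–16 months. In the kinase cascade, 2 of 9 genes were higher and none lower at either age. Among 8 other RAS GAPs and brakes, none of the 5 compared at 3 months and 1 of the 4 compared at 12–16 months was at least 1.5-fold apart. The counts of these last 3 lists are over all cells. The shares of all genes there were 24.9% higher and 10.8% lower at 3 months, and 13% and 5.33% at 12–16 months.

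Between the gates and cartilage, the largest increases among called list genes with at least 50 UMIs were in Rasgrp2, an exchange factor known from platelets and other blood cells, and in the feedback inhibitors Spry1 and Spry4. Rasgrp2 was at 0.602 CPM in cartilage (11 UMIs), 92.0 CPM in bone/stroma, 173 CPM in mural and 195 CPM in blood cells, pooled over the libraries tested, and each difference from cartilage was called (adjusted p = 1.4e-06, 1.2e-06 and 5.65e-06). Spry1 was at 1.53 CPM in cartilage, 77.9 CPM in bone/stroma (adjusted p = 2.66e-06) and 60.5 CPM in mural cells (adjusted p = 2.66e-05), and Spry4 at 2.24 CPM in cartilage and 103 CPM in mural cells (adjusted p = 2.36e-06). These calls also held among cells of exactly 1 gate. Rasal3 and Rasgrp4 were also called higher in bone/stroma and blood than in cartilage with all gated cells, on fewer UMIs than this limit, and no fold is given for them. Neither gene was among the calls for cells of exactly 1 gate. That fit tested 4 of the other RAS GAPs and brakes, the list of Rasal3, against 5 with all gated cells. An absent call there can therefore mean a gene too low to be tested. Mras, a RAS-related GTPase, was at 55.8 CPM in cartilage and 3.41 CPM in blood (adjusted p = 9.05e-05).

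Over all genes, 15.5% were called higher and 12.9% lower in bone/stroma than in cartilage, 9.33% and 12.6% in mural cells, and 13.8% and 19.5% in blood. By list, 3 of 11 exchange factors and adaptors were higher in bone/stroma than in cartilage, 2 in mural cells and 4 in blood, and 2 were lower in blood. Of 9 ERK feedback genes, 3 were higher and 2 lower in bone/stroma, 2 and 2 in mural cells, and 1 and 4 in blood. Of 6 RAS genes, none was higher and 3 were lower in bone/stroma, 1 and 1 in mural cells, and 1 and 2 in blood. Of 9 kinase cascade genes, 1 was higher in bone/stroma, 1 in mural cells and 2 in blood, where 1 was lower. Of 5 other RAS GAPs and brakes, 2, 1 and 1 were higher and 1, none and 1 lower, in the same order of gates. The median log2 fold changes of the feedback list were -0.70 in bone/stroma, -0.84 in mural cells and -1.09 in blood, below the medians over all genes, although its called members went both ways. Without the 3-month control library they were -0.40 in bone/stroma and -0.18 in mural cells, against 0.07 and -0.18 over all genes, so the mural median was no longer below. Among cells of exactly 1 gate the list medians were -0.43 and -0.54, against -0.04 and -0.27 over all genes.

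Across the 15 library-by-gate sums with at least 50000 UMIs, which share libraries and cells, the level of Nf1 on a log2(CPM + 10) scale followed that of Spred1 (Pearson's r = 0.87) and went against that of Rasa1 (r = -0.50), and Rasa1 went against Spred1 (r = -0.70). Among 6577 genes, those most like Nf1 were Fbn1 (r = 0.95), Nedd4 (0.95), Foxc1 (0.95), Nenf (0.92) and Abcd3 (0.91). Those most like Rasal2 were Mprip (0.98), Kcnab1 (0.97), Dmd (0.96), Tpm2 (0.96) and Nr2f2 (0.96), and those most like Rasa3 were Adam10 (0.95), 2610307P16Rik (0.92), Ramp1, Osbpl8 (both 0.90) and Rftn1 (0.89). Spred1 was most like Tgfb3 and Zfp36l1 (both 0.95). For Rasa1 the first gene was Srsf11 (0.95), for Rasa2 Sfswap (0.93) and for Spred2 Hmbox1 (0.88). These are descriptions over few sums that differ in depth and are dominated by the gates.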

How the data were processed

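The authors sorted tdTom+ cells, sequenced 10x 3′ libraries and deposited UMI counts per gene and barcode from Cell Ranger 8.0.0 on mm10, per the file headers and the submitters' processing notes. These counts were not normalized further, and free RNA was not corrected here. A cell was kept above 750 UMIs and 500 genes and below 7% mitochondrial counts. Gates were Sox9 of at least 1 and Acan of at least 3 (cartilage), Acan up to 2 and Runx2 of at least 1 (bone/stroma), Rgs5 plus Myh11 of at least 3 (mural) and Ptprc of at least 1 (blood). A cell in more than 1 gate counted in each, and no doublet caller was run. The gates stand in for cell types, since the authors' annotation was not used here.

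UMIs were summed per library and gate. Sums of at least 10 cells (14 sums, 7 residual degrees of freedom) entered edgeR 4.0.16 in R 4.3.3 (TMM, filterByExpr, library and gate terms, threshold 0.05), and SEs were taken from the fold change and the F statistic. The contrasts among bone/stroma, mural and blood came from the same fit. Data were simulated for bone/stroma against cartilage (10194 genes), with 100 genes changed 2-fold and 100 changed 4-fold. Of these, 12% and 74% were recovered, with 4 false calls. The simulation had no library effects, the same dispersion for all genes and far fewer changed genes than were called in the data. Its figures therefore need not hold for the fit to the data. Library ratios have exact conditional binomial intervals and levels exact Poisson intervals at 95% (scipy 1.17.1), with a floor of 3 counts, and genes with at least 50 UMIs in a pair were compared. Of 32286 gene identifiers, 32235 were in the GRCm38 annotation.

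All 8 genes are named. Of the pathway lists, up to 3 called genes with the largest log2 change per comparison and at least 50 UMIs are named, and for likeness the 5 genes with the highest r. The genes, gates and lists were chosen with earlier results of these data known. The alternatives are given with their effects at the end.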

Additional observations from a re-analysis of the deposited data

Results flagged for a closer look

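In all passing cells, the Nf1 ratio of mutant to control was 1.14 at 3 months and 0.853 at 12–16 months, with counting intervals that leave out 1 on opposite sides (1.05 to 1.24 and 0.742 to 0.982). The second ratio divided by the first was 0.749 (0.638 to 0.879 by counting error), and in cartilage-gated cells 0.716 (0.588 to 0.872). Cartilage cells were also split by Runx2, a split chosen after the data were seen. With Runx2 the Nf1 ratios at 3 and 12–16 months were 1.02 (0.886 to 1.17) and 1.06 (0.809 to 1.40). Without Runx2 they were 1.20 (1.05 to 1.37) and 0.711 (0.557 to 0.912). With 1 library per genotype and age the difference between the ages was not tested. The summed nuclear RNAs Malat1 and Neat1 were at 23895 and 21068 CPM in control and mutant cells at 3 months and at 24848 and 13907 CPM at 12–16 months, and their part in this result was not tested. The opposite directions held by total UMIs and not under every scaling, since the 3-month ratio was 1.00 with TMM factors (0.817 at 12–16 months), and below 1 with every cell thinned to 2000 UMIs (log2 -0.13).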

How the results depend on the processing

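Of the gate contrasts recomputed over all alternatives, 537 kept their side of the threshold, 21 lost and 18 gained a call, and none that was called changed sign. Some that were not called did change sign, such as Nf1 in bone/stroma against cartilage, where log2 fold changes ranged from -0.39 to 0.11. The count of genes called in bone/stroma against cartilage (1) became 2 with DESeq2, with total UMIs, without the 5% deepest cells and with no library term (no replicate block), and 3 among cells of exactly 1 gate, and ranged from 1 to 3 with 1 library left out, where 3 came without the 3-month mutant. Of all genes, 3830, 3236 and 3295 of 11161 were called with DESeq2, with total UMIs and with no library term. The calls numbered 2908 of 9036 without the deepest cells, 3296 of 10865 among cells of exactly 1 gate and 3334 of 10971 without the 3-month mutant. In mural cells (2) it became 1 among cells of exactly 1 gate and with cells thinned to 2000 UMIs, and ranged from 1 to 2 with 1 library left out, where 1 came without the 3-month control. All-gene calls in these settings were 2281 of 10865 (exactly 1 gate), 1088 of 3067 (thinned) and 1469 of 11660 (without the 3-month control). Only 5 of the 8 genes were tested when thinned. In blood (3) it was 2 when thinned, 4 with DESeq2, with DESeq2 size factors, without the 5% deepest cells and with no library term, and 2 to 3 with 1 library left out, where 2 came without the 12–16-month mutant. Here 1137 of 3067 genes were called when thinned and 3145 of 9036 without the deepest cells. With DESeq2, its size factors and no library term, 4269, 4051 and 4253 of 11161 were called, and 2080 of 11342 without the 12–16-month mutant. The fit to cells of exactly 1 gate also lost the 3-month control mural sum, and the thinned fit lost the 3-month control blood sum. The library term pairs the gates of 1 library, and no paired analysis of genotype or age was possible because each group is 1 library.

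Thinning to 2000 UMIs reversed the log2 ratios of Nf1 at 3 months in all cells (-0.13) and cartilage cells (-0.0296), and in 3-month cartilage those of Rasa1 (-0.00122) and Rasal2 (0.30). Splits of cartilage cells by Runx2, chosen after seeing the data, reversed Rasa1 at 3 months with Runx2 (-0.0131), and without Runx2 Rasal2 at 3 months (0.35) and between the ages in mutant cells (-0.39). The cause was not tested. Counts of genes at least 1.5-fold apart moved as follows, with no share of all genes computed under these alternatives. At 3 months in all cells (1) the count was 2 with equal weight per cell and 0 with TMM factors. At 12–16 months in all cells (0) it was 2 when thinned, 1 without the 5% deepest cells, 3 with equal weight and 1 with no UMI minimum. In cartilage it was 3 with Runx2 at 3 months (1), 1 with equal weight and 1 without Runx2 at 12–16 months (0), 2 with Runx2 between the ages in control cells (0), and between the ages in mutant cells (0) it was 1 when thinned, 1 without the 5% deepest cells, 3 with Runx2 and 1 without. Depth limits mural and blood values most, with 616953 and 1262535 UMIs in all.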

Other observations

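The 176 passing cells that met no gate held 725742 UMIs and had 154 CPM of Rasal2 (112 UMIs, interval 127 to 186), 99.2 CPM of Nf1 and 45.5 CPM of Rasa3, pooled over the libraries. Cartilage-gated cells without Runx2 had 61.5 CPM of Rasal2 and those with Runx2 48.6 CPM, an order that did not hold in every library. At 3 months, cells without and with Runx2 had 58.9 and 56.6 CPM in control and 74.8 and 36.0 CPM in mutant cells. The order was reversed at 12–16 months, at 54.5 and 62.2 CPM in control and 57.0 and 65.4 CPM in mutant cells. In the 54 blood-gated cells without a Runx2 UMI, Rasa3 was at 138 CPM (105 to 179) and Spred1 at 28.6 CPM (12 UMIs). These values were picked after they were seen and are given without a test.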
